A study of Mus musculus with 29 samples.

Results

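The genes described here encode 10 antioxidant enzymes of skeletal muscle: Sod1, Sod2, Cat, Gpx1, Gpx4, Prdx3, Prdx5, Txnrd2, Nqo1 and Hmox1. They were taken by name from the 48023 gene rows of the count table, and 9 of the 10 had enough reads to be tested. RNA-Seq had been run on muscle of 29 male mice of 2 lines on a C57BL/6J background, aged 2 to 3 months, to ask how loss of a catalytic subunit of PI3K, the kinase that carries the insulin signal, alters muscle fed or after a 24 h fast. In M-p110αKO the floxed exon 1 of p110α, and in M-p110βKO the floxed exon 2 of p110β, had been removed by Cre under the human alpha-skeletal actin (HSA) promoter, which acts in muscle fibers and leaves the other cells of the muscle intact. The p110α line gave 4 fed controls, 4 fed M-p110αKO, 4 fasted controls and 3 fasted M-p110αKO. From the p110β line came 3 control and 4 M-p110βKO mice in the fed state, and 3 control and 4 M-p110βKO mice after the fast. Each line had its own controls, labelled WT and described in the study as floxed mice. By the study's genome scan the floxed p110β mice were less purely C57BL/6 than the floxed p110α mice, so floxed gene and genetic background cannot be told apart where controls of the 2 lines are compared.

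Superoxide leaks from the respiratory chain and is turned into hydrogen peroxide by superoxide dismutases, SOD1 in the cytosol and SOD2 in the mitochondrial matrix. Hydrogen peroxide is then removed by catalase in peroxisomes, by the glutathione peroxidases GPX1 and GPX4, of which GPX4 acts on lipid peroxides in membranes, and by the peroxiredoxins PRDX3 and PRDX5. Thioredoxin, which PRDX3 and PRDX5 use, is kept reduced in mitochondria by TXNRD2. NQO1 reduces quinones and HMOX1 breaks down heme, and both genes are classical targets of the transcription factor NRF2, encoded by Nfe2l2.

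Levels are given as CPM, the counts of a gene scaled to the size of its library, after TMM scaling of the 29 libraries, which held 5351935 to 11653239 reads assigned to genes. All 8 muscle fiber markers together made up 99200 to 138000 CPM in every library, and the 4 neutrophil markers together stayed between 0 and 0.285 CPM. The fiber sum does not show moves of single markers. In controls of the p110β line Myh2 rose by 1.94 and Myh7 by 3.36 (log2) after fasting. Mylpf fell there by 0.69 and Ckm by 0.50 (edgeR adjusted p 0.000294 to 0.0169 for these markers). Their part in the changes of the antioxidant enzyme genes was not tested. Over its whole length the targeted gene Pik3ca was at 106 to 163 CPM in fed M-p110αKO and 103 to 150 CPM in fed controls, and Pik3cb was at 9.51 to 11.7 CPM in fed M-p110βKO and 9.96 to 10.7 CPM in fed controls. In fasted mice Pik3ca was at 158 to 186 CPM in M-p110αKO and 171 to 191 CPM in controls. Pik3cb was at 9.34 to 10.2 CPM in fasted M-p110βKO and 8.62 to 10.2 CPM in fasted controls. The study reports a strong reduction of the targeted mRNA in hindlimb muscle of each knockout, which these whole-gene counts do not show. Counts over all exons cannot show the loss of 1 exon, so the genotype labels are not checked by these data. Adipocyte markers set 2 libraries apart: their summed level was 387 and 424 CPM in replicates 23 and 24, both fasted controls of the p110β line, 172 CPM in the third library of that group and 90 to 207 CPM in the other 26. For a named gene other than a muscle fiber marker, the value without these 2 libraries is given where leaving them out ended a call, turned the direction or moved the value by over 1.5 times. Such a fit rests on 1 fasted control of the p110β line, with the spread taken from the other groups.

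For comparison between genes the levels were divided by exon length, the total of all annotated exons of a gene. By this measure Prdx3, the mitochondrial peroxiredoxin, was highest at 134 ± 16.2 CPM per kb (SD, n = 29). It lay above Cat in 29 of 29 libraries. The order depends on this length, which was 10008 bases for Sod2, 3970 for Sod1 and 1478 for Prdx3. Undivided, Sod2 was above Prdx3, at 255 to 457 against 154 to 244 CPM. Per kb, Prdx3 was followed by Cat at 39.4, Sod2 at 31.8, Gpx1 at 31.3, Prdx5 at 27.8, Sod1 at 25.9 and Gpx4 at 21.4 CPM per kb. These middle genes were not clearly ordered: Cat exceeded Sod2 in 15 of 29 libraries, Sod2 exceeded Gpx1 in 15, Gpx1 exceeded Prdx5 in 18, Prdx5 exceeded Sod1 in 17 and Sod1 exceeded Gpx4 in 20. Nqo1 followed at 14.1 CPM per kb and Hmox1 was lowest of the tested genes at 2.52 CPM per kb, with 9 to 87 reads in a library. The exons of Prdx5 overlap those of Trmt112 on the other strand over 409 bases, and whether reads were counted by strand is not given in the sources used here.

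Txnrd2 (chr16:18426384-18479073) was listed with 1 read over all 29 libraries, found in a fasted control of the p110β line. Txnrd2 is known to be widely expressed, no level of it is read from these counts, and the reason for the low count was not tested. A count of 0 allows up to 3 reads, or 0.257 to 0.561 CPM depending on the library, for counting error only.

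**Figure D1:**
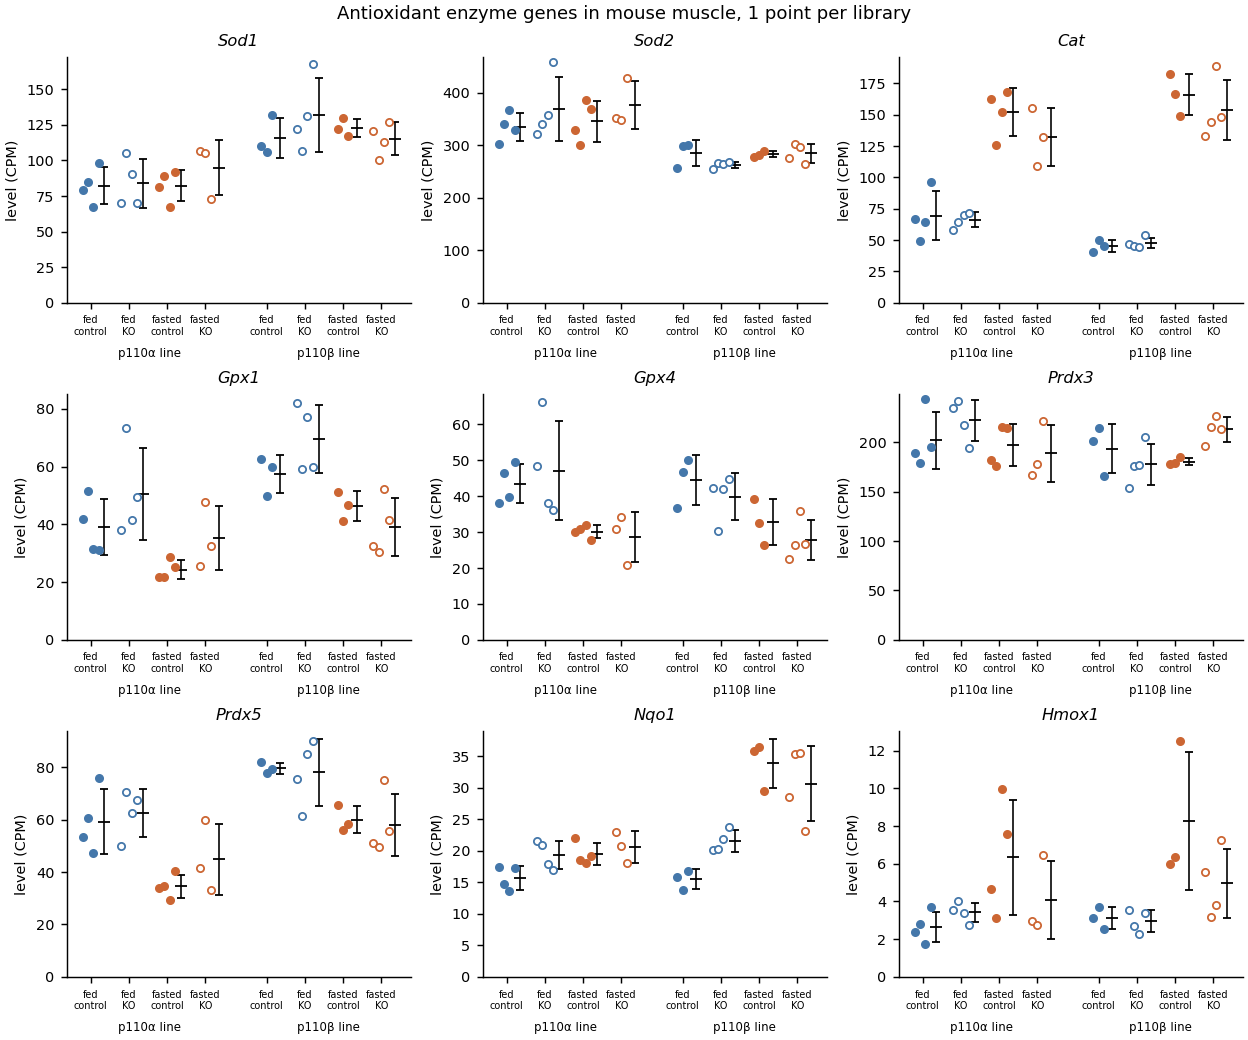
Level of 9 antioxidant enzyme genes (vertical axes, CPM from 0) in the 8 groups (horizontal axes), 1 point per library; blue points are fed and orange points fasted mice, filled points controls and open points knockouts, with the mean and SD as a black bar. Cat stood between 109 and 189 CPM in the fasted libraries and between 40.2 and 96.7 CPM in the fed ones, whereas Sod1, Sod2 and Prdx3 overlapped between fed and fasted mice.

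The first question was how fasting moved these genes. Cat rose in all 4 fasting comparisons, Nqo1 rose in both genotypes of the p110β line, and Hmox1 rose in the controls of both lines. Gpx1, Gpx4 and Prdx5 were lower after fasting in some of the comparisons and higher in none. Sod1, Sod2 and Prdx3 did not pass the test in any. A gene was called at an adjusted p below 0.05 in edgeR's quasi-likelihood test, adjusted over all genes tested. In controls of the p110α line 2 antioxidant enzyme genes rose and 3 fell, where 30.1% of all 12433 genes were called, 15.4% higher and 14.7% lower. In M-p110αKO 1 rose and 1 fell, against 21.5% of all genes, 11.6% higher and 9.91% lower. In controls of the p110β line 3 rose and 0 fell, against 26.9% of 12249 genes, 14.5% higher and 12.4% lower. In M-p110βKO 2 rose and 3 fell, against 37.9%, with 19% higher and 18.9% lower. The medians of the tested members were −0.01, 0.03, 0.00 and 0.11 on the log2 scale in these 4 comparisons, and those of all genes −0.02 to 0.00.

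Cat (chr2:103453849-103485160, minus strand) encodes catalase. In the p110α line it was at 66.9, 49.7, 64.5 and 96.7 CPM in fed controls and at 163, 126, 152 and 168 CPM in fasted controls. Fed M-p110αKO had 58.3, 64.8, 70.3 and 71.8 CPM, and fasted M-p110αKO 155, 109 and 132 CPM. Every fasted library of the line thus lay above every fed one. The change was 1.12 ± 0.16 (log2, SE) in controls, a 2.18-fold rise with adjusted p = 7.28e-05 (edgeR), and 1.00 ± 0.17 in M-p110αKO with adjusted p = 0.000665 (edgeR).

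In the p110β line the same gene went from 40.2, 50.1 and 45.0 CPM in fed controls to 182, 167 and 149 CPM in fasted controls. In M-p110βKO it went from 44.5 to 54.0 CPM in fed mice to 133 to 189 CPM in fasted mice. The Cat groups were again fully apart, with a change of 1.90 ± 0.14 in controls (3.72-fold, edgeR adjusted p = 3.02e-08) and of 1.69 ± 0.12 in M-p110βKO (3.22-fold, edgeR adjusted p = 1.29e-08). The larger response of Cat in β-line controls was tested directly: it exceeded that of α-line controls by 0.76 ± 0.23 with adjusted p = 0.0795 (edgeR), which was not called. DESeq2 called this Cat difference at 0.79 (adjusted p = 0.0304), and so did edgeR without replicate 2 (0.89, adjusted p = 0.0336) or without replicate 25 (0.85, adjusted p = 0.0467), or without a filter on low counts (0.80, adjusted p = 0.00304). Leaving out replicates 23 and 24 gave 0.62 (adjusted p = 0.419, edgeR).

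The promoter of Cat is shown because it was the gene called in every fasting comparison. The 150 bases before its RefSeq start (GRCm38.p6, chr2:103485154-103485303, minus strand) read as follows, with the CCAAT boxes of either strand in capitals.
Cat: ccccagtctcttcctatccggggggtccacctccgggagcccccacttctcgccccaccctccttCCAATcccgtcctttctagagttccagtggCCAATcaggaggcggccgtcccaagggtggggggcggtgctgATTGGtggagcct

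The letters CCAAT occur in 37.4% of the 32851 RefSeq windows of 300 bases (250 before the start and 50 after it, both strands) and 4 times in that of Cat. RefSeq windows were found for 9 of the 10 members, 12 windows in all, and none for Hmox1. GTAAACA, the core letters bound by forkhead factors, were in 0 of the 12 and in 3.65% of all windows. TGACNNNGC, the core of the antioxidant response element bound by NRF2, was in 1 of the 12, that of Sod1, and in 12.4% of all windows. A match or its absence in such a window describes letters only.

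Nqo1 (chr8:107388225-107403206, minus strand) was nearly level across fed controls, at 17.4, 14.7, 13.6 and 17.3 CPM in the p110α line and 15.9, 13.8 and 16.8 CPM in the p110β line. After fasting it was at 22.0, 18.6, 18.1 and 19.1 CPM in α-line controls but at 35.8, 36.4 and 29.4 CPM in β-line controls. The groups of each line did not overlap. The change was 0.29 ± 0.12 in the p110α line (edgeR adjusted p = 0.0882) and 1.13 ± 0.16 in the p110β line (2.19-fold, edgeR adjusted p = 4.18e-05). The response of Nqo1 in β-line controls exceeded that in α-line controls by 0.83 ± 0.20 with adjusted p = 0.0289 (edgeR), the only member called in a comparison where 1.56% of 12760 genes were, 0.933% with a higher and 0.627% with a lower response. This call was lost when any of 8 control libraries was left out (replicates 1, 4, 10, 11, 16, 17, 23 and 24), with adjusted p from 0.0533 to 0.0839, and without both of replicates 23 and 24 the difference was 0.64 with adjusted p = 0.316 (edgeR).

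Among knockouts, Nqo1 was at 21.5, 20.9, 17.9 and 16.9 CPM in fed and 23.1, 20.8 and 18.0 CPM in fasted M-p110αKO, a change of 0.10 ± 0.13 with adjusted p = 0.628 (edgeR). It was at 20.1, 20.2, 21.9 and 23.8 CPM in fed and 28.6, 35.4, 35.5 and 23.2 CPM in fasted M-p110βKO. The fasted β libraries lay higher apart from 1 that fell among the fed ones, and the rise was 0.51 ± 0.13 with adjusted p = 0.00567 (edgeR). The 150 bases before the start of Nqo1 (GRCm38.p6, chr8:107403206-107403355, minus strand) are shown because its fasting response was called different between lines, with a TATAAA box in capitals, letters found in 13.6% of all windows.
Nqo1: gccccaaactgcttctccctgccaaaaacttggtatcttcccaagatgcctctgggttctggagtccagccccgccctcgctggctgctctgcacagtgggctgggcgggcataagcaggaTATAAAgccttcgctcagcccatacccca

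Hmox1 (chr8:75093621-75100589) was low in fed controls, at 2.38, 2.79, 1.75 and 3.69 CPM in the p110α line and 3.14, 3.71 and 2.52 CPM in the p110β line. Fasted controls had 4.66, 3.14, 9.96 and 7.6 CPM in the p110α line and 5.99, 6.35 and 12.5 CPM in the p110β line. The β-line groups were apart and the α-line groups overlapped by 1 library. Hmox1 rose by 1.18 ± 0.34 in α-line controls (edgeR adjusted p = 0.0147) and by 1.42 ± 0.33 in β-line controls (edgeR adjusted p = 0.0035). The α-line call was lost without replicate 11, with 0.90 and adjusted p = 0.0566 (edgeR).

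In knockouts the fasted values of Hmox1 were 2.98, 2.76 and 6.46 CPM for M-p110αKO and 5.56, 3.20, 3.83 and 7.26 CPM for M-p110βKO, against 2.29 to 4.01 CPM in the fed knockouts. The changes of 0.23 ± 0.38 (edgeR adjusted p = 0.702) and 0.71 ± 0.30 (edgeR adjusted p = 0.0707) were not called. The interaction of genotype and fasting for Hmox1 was −0.95 ± 0.51 in the p110α line (edgeR adjusted p = 0.403) and −0.71 ± 0.45 in the p110β line (edgeR adjusted p = 0.535), so a different response of the knockouts was not shown. The latter was −1.30 without replicates 23 and 24 (adjusted p = 0.539, edgeR). The rise of Hmox1 in M-p110βKO was called with an offset for GC content and length (0.92, adjusted p = 0.028), without a filter on low counts (0.73, adjusted p = 0.0236), with only the compared groups (0.73, adjusted p = 0.0493), and without replicate 25 (0.73, adjusted p = 0.0326) or 27 (0.88, adjusted p = 0.0281, edgeR). Macrophages are rich in HMOX1, and the 8 macrophage markers together were at 10.5 to 16.8 CPM in fed and 18.4 to 41.9 CPM in fasted α-line controls, with 2 of the 6 tested called higher. In β-line controls they were at 13.3 to 17.9 CPM fed and 11.2 to 18.7 CPM fasted, and 0 of 5 tested were called (edgeR), while all 4 tested adipocyte markers were higher after fasting. In M-p110βKO the macrophage markers were at 15.4 to 28.7 CPM fed and 8.85 to 10.4 CPM fasted, with 5 of 5 tested called lower, and in M-p110αKO at 12.3 to 22.6 and 8.68 to 33.7 CPM, with 0 of 6 called (edgeR). The part of these cells in the change of Hmox1 was not tested, and in whole muscle fewer cells of a type and less RNA per cell cannot be told apart. Without replicates 23 and 24 the changes in β-line controls were 2.03 for Hmox1, 0.93 for Nqo1 and 1.74 for Cat. That leaves 1 fasted β-line control, replicate 25, whose Hmox1 level of 12.5 CPM was the highest of the 29 libraries.

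Gpx1 (chr9:108338903-108340343), the general glutathione peroxidase, was at 42.0, 51.4, 31.6 and 31.0 CPM in fed and 21.7, 21.8, 28.8 and 25.2 CPM in fasted α-line controls. It was at 82.1, 59.3, 77.1 and 60.0 CPM in fed and 32.4, 30.5, 52.3 and 41.6 CPM in fasted M-p110βKO. The Gpx1 groups did not overlap in either pair. It fell by 0.69 ± 0.22 in the former (edgeR adjusted p = 0.0252) and by 0.83 ± 0.16 in the latter (edgeR adjusted p = 0.000499). The estimates were −0.52 ± 0.24 in M-p110αKO (edgeR adjusted p = 0.125) and −0.30 ± 0.18 in β-line controls (edgeR adjusted p = 0.23). Markers of other cells moved in M-p110βKO as well: all 6 fibroblast markers, 5 of 5 macrophage markers and 2 of 6 endothelial markers were called lower after fasting, and the fibroblast markers together went from 370 to 541 CPM to 152 to 222 CPM. Their part in the falls of Gpx1, Gpx4 and Prdx5 in that comparison was not tested.

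Gpx4 (chr10:80047166-80056439), the lipid peroxide reducing enzyme, was at 38.1, 46.5, 39.7 and 49.4 CPM in fed and 30.1, 30.8, 31.9 and 27.7 CPM in fasted α-line controls, with no overlap. It fell by 0.54 ± 0.17 there (edgeR adjusted p = 0.0265), by 0.72 ± 0.19 in M-p110αKO (edgeR adjusted p = 0.0133) and by 0.52 ± 0.16 in M-p110βKO (edgeR adjusted p = 0.0164). In β-line controls Gpx4 changed by −0.43 ± 0.18, which was not called (edgeR adjusted p = 0.0871). It was −0.74 without replicates 23 and 24 (adjusted p = 0.0602), and was called without replicate 23 (−0.58, adjusted p = 0.0445), without a filter on low counts (−0.41, adjusted p = 0.048) and with upper-quartile scaling (−0.50, adjusted p = 0.0499, edgeR).

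Prdx5 (chr19:6906697-6910106, minus strand), the peroxiredoxin of mitochondria, peroxisomes and cytosol, was at 53.2, 60.6, 47.3 and 76.1 CPM in fed and 33.8, 34.8, 29.5 and 40.4 CPM in fasted α-line controls, with no overlap. It fell by 0.79 ± 0.17 there (edgeR adjusted p = 0.00251) and by 0.43 ± 0.13 in M-p110βKO (edgeR adjusted p = 0.0171). The other estimates for Prdx5 were −0.48 ± 0.19 in M-p110αKO (edgeR adjusted p = 0.0757) and −0.40 ± 0.15 in β-line controls (edgeR adjusted p = 0.0636).

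Several of these falls hung on single libraries. In α-line controls Gpx1 lost its call without replicate 1, 2, 9 or 10 (adjusted p 0.0603 to 0.101) and Gpx4 without replicate 2, 4, 9, 10 or 12 (0.0527 to 0.0777). In M-p110αKO Gpx4 lost its call without replicate 15 (−0.55, adjusted p = 0.0692, edgeR). In M-p110βKO Gpx4 lost its call without replicate 22 or 26 (adjusted p 0.0513 and 0.0658) and Prdx5 without replicate 21, 22 or 26 (0.0533 to 0.0664). In turn, Prdx5 in M-p110αKO was called without replicate 14 at −0.74 (adjusted p = 0.0127), without replicate 4 or 5 (0.0497 and 0.0446), in a fit of all 29 libraries (0.0482) and without a filter on low counts (0.0039, edgeR). Gpx1 there was called without replicate 14 at −0.80 (adjusted p = 0.0372) and without the filter at −0.57 (adjusted p = 0.00223, edgeR). Prdx5 in β-line controls was called without replicate 20, 27 or 28 (adjusted p 0.0289 to 0.0489), with only the compared groups (0.0234) and with upper-quartile scaling (0.0328, edgeR).

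The tested members with the highest GC content were the ones that fell: Gpx4 at 60.2%, Gpx1 at 57.2% and Prdx5 at 56.4% of the longest transcript, against 42.2% to 53.3% for the other 6. A fit with an offset for GC content and exon length, estimated over all genes, gave smaller falls. In α-line controls Gpx1 was then at −0.38 (adjusted p = 0.187) and Gpx4 at −0.17 (adjusted p = 0.428), both no longer called, while Prdx5 was at −0.54 (adjusted p = 0.00918). In M-p110βKO Gpx4 was at −0.16 (adjusted p = 0.384) and Prdx5 at −0.18 (adjusted p = 0.224), no longer called, while Gpx1 was at −0.54 (adjusted p = 0.00337). In M-p110αKO Gpx4 was still called at −0.65 (adjusted p = 0.00942) and Prdx5 was gained at −0.46 (adjusted p = 0.0436). The rises were kept, with Cat at 1.14, 1.09, 1.94 and 1.75 in the 4 comparisons, and Nqo1 in α-line controls was gained at 0.36 (adjusted p = 0.0356, edgeR with the offset). Prdx3 was also gained in M-p110βKO at 0.32 (adjusted p = 0.02), as was Hmox1 there at 0.92 (adjusted p = 0.028).

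**Figure D2:**
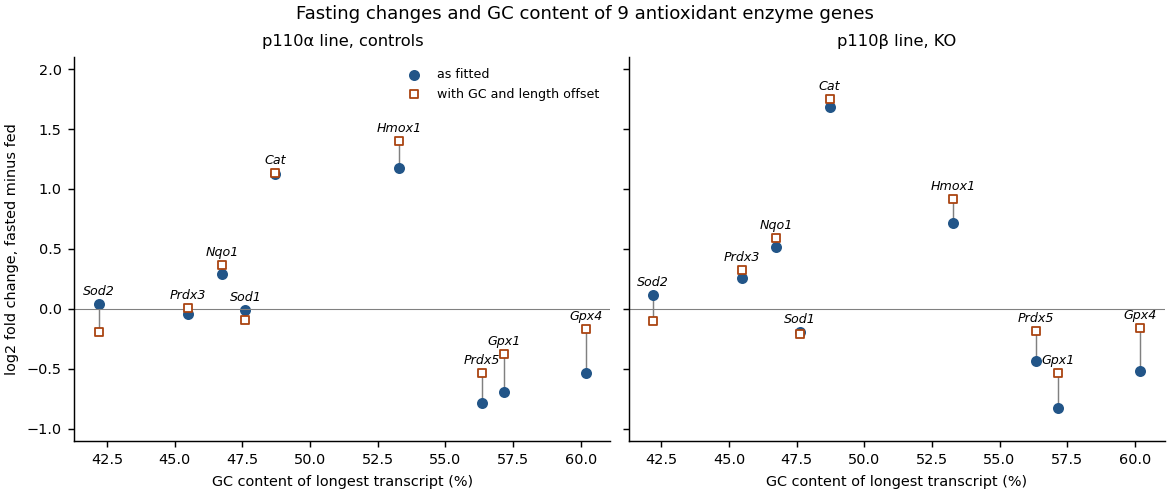
Fasting change (vertical axis, log2 fold change) of 9 antioxidant enzyme genes against the GC content of their longest transcript (horizontal axis, percent) in α-line controls (left) and M-p110βKO (right); filled circles are the values as fitted and open squares those with a GC and length offset. Gpx4 moved from −0.54 to −0.17 on the left and from −0.52 to −0.16 on the right, whereas Cat stayed above 1.

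Sod1, Sod2 and Prdx3 stayed near the fed level. Sod2, the matrix superoxide dismutase, changed by 0.04 ± 0.12 in α-line controls (edgeR adjusted p = 0.82) and by 0.00 ± 0.10 in β-line controls (edgeR adjusted p = 0.988). Sod1 changed by −0.01 ± 0.16 and 0.09 ± 0.14 in the same controls. In β-line controls without replicates 23 and 24 the values were 0.04 for Sod2 and 0.03 for Sod1. Prdx3 was within 0.26 of 0 on the log2 scale in every fasting comparison. Its largest change was 0.26 ± 0.10 in M-p110βKO, where fed libraries were at 154 to 205 CPM and fasted ones at 197 to 226 CPM (edgeR adjusted p = 0.0526). DESeq2 called it there (0.27, adjusted p = 0.0332) and so did limma-voom (0.27, adjusted p = 0.046). Prdx3 was further called by edgeR with DESeq2 size factors, with genes kept at 1 CPM in 3 libraries, with the mitochondrially encoded genes left out or with only the compared groups (adjusted p 0.0406 to 0.0479), and without replicate 18, 22, 25 or 26 (0.0221 to 0.0413).

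**Figure D3:**
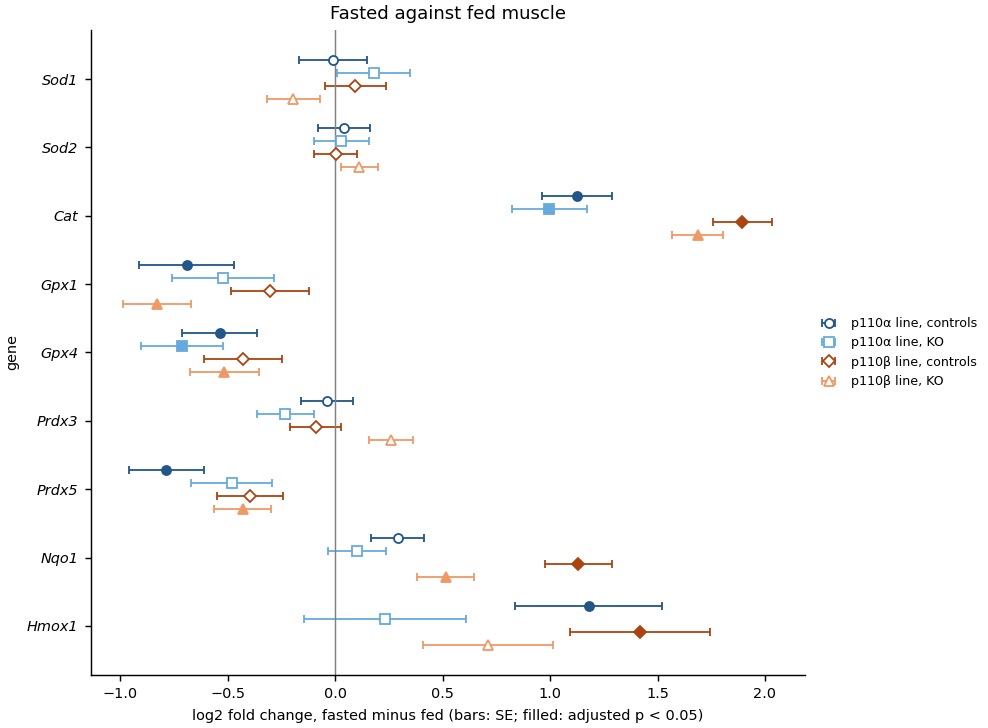
Change of 9 antioxidant enzyme genes with fasting (horizontal axis, log2 fold change, fasted minus fed) for controls and knockouts of each line, with SE bars; filled symbols passed an adjusted p of 0.05 and open symbols did not. Cat lay between 1.00 and 1.90 in the 4 comparisons, and Gpx1, Gpx4 and Prdx5 lay below 0 in each.

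The second question was whether loss of p110α or p110β moved these genes, since M-p110αKO and M-p110βKO were made to separate the roles of the subunits. The answer of the test was the same in each comparison: 0 of 9 tested members were called (edgeR), and DESeq2 and limma-voom also called 0. For the p110α line 0.611% of all genes were called in the fed and 6.52% in the fasted state, and for the p110β line 0% and 0.89%. Averaged over feeding states they made up 5.49% and 0.335%, and in the interactions of genotype and fasting 0.483% and 0.106%, with 0 members called in each (edgeR, DESeq2 and limma-voom). In fed M-p110βKO, 1060 of all genes had an unadjusted p under 0.05 though 0 were called by edgeR or limma-voom, and 30 were called by DESeq2. Members with an unadjusted p under 0.05 numbered 1 in each state of the p110α line, 1 in the fed and 2 in the fasted state of the p110β line, 0 and 3 in the α-line and β-line interactions, and 1 and 0 in the averages. Among all 12433 genes of the p110α line, 1455 in the fed and 2831 in the fasted state had such a p. Among the 12249 of the p110β line these were 1060 and 1619. For the α-line and β-line interactions they numbered 1859 and 1563, and for the averages 2559 and 1302.

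The 95% intervals show which sizes of change the libraries still allow. For Cat the log2 difference ran from −0.42 to 0.27 in M-p110αKO when fed and from −0.56 to 0.17 when fasted, and from −0.18 to 0.37 and −0.37 to 0.14 in M-p110βKO. For Sod2 it ran from −0.11 to 0.40 in fed M-p110αKO and from −0.19 to 0.20 in fasted M-p110βKO. Without replicates 23 and 24 the estimates in fasted M-p110βKO were 0.04 for Cat and −0.03 for Sod2, neither called by edgeR. For Hmox1, with few reads, it was far wider, from −1.40 to 0.13 in fasted M-p110αKO. With the GC and length offset Sod2 was at 0.32 ± 0.11 in fasted M-p110αKO (adjusted p = 0.133, edgeR). In the average of both states it was at 0.24 ± 0.08 with the offset (adjusted p = 0.0886, edgeR), and neither was called.

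Gpx1 had the widest shift of the better counted genes. Fasted M-p110αKO had 25.7, 47.6 and 32.6 CPM and fasted controls 21.7 to 28.8 CPM, which overlapped, with a difference of 0.54 ± 0.24 (edgeR adjusted p = 0.181). In fed mice the difference of Gpx1 was 0.38 ± 0.22 (edgeR adjusted p = 0.529). When no filter on low counts was applied, edgeR called Gpx1 in fasted M-p110αKO at 0.50 (adjusted p = 0.0243). It also called the average of both states at 0.44 (adjusted p = 0.000885). With the GC and length offset Gpx1 was at 0.26 in fasted M-p110αKO (adjusted p = 0.589) and 0.30 in the average (adjusted p = 0.3, edgeR). The effect of the knockout on Gpx1 in fasted mice was 0.78 ± 0.31 higher in the p110α line than in the p110β line, which was not called (edgeR adjusted p = 0.138), as with all 9 members in a comparison where 4.88% of genes were. The number of members with an unadjusted p under 0.05 was 1 there and 0 for the fed effects, where 0.133% of genes were called. Of all 12760 genes, 2796 and 1395 had such a p in these comparisons. DESeq2 and limma-voom called 0 members in both comparisons between lines. With the GC and length offset the line difference of Gpx1 in fasted mice was 0.43 (adjusted p = 0.487, edgeR).

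Nqo1 was higher in fed M-p110βKO, at 20.1 to 23.8 CPM, than in fed controls, at 13.8 to 16.8 CPM, with no overlap. The difference of 0.47 ± 0.15 had an unadjusted p of 0.00578 and an adjusted p of 0.333 (edgeR), and was therefore not called. In fasted mice of that line the difference of Nqo1 was −0.14 ± 0.14, and the interaction of −0.62 ± 0.21 was not called (edgeR adjusted p = 0.251). Leaving out replicates 23 and 24 turned the former to 0.06 (adjusted p = 0.978) and gave an interaction of −0.40 (adjusted p = 0.727, edgeR). Fasted M-p110βKO also had Prdx3 at 197 to 226 CPM against 178 to 185 CPM in fasted controls, with no overlap and a difference of 0.24 ± 0.11 (edgeR adjusted p = 0.368). Hmox1 was −0.75 ± 0.29 there (edgeR adjusted p = 0.257), and −1.35 with adjusted p = 0.182 without replicates 23 and 24.

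**Figure D4:**
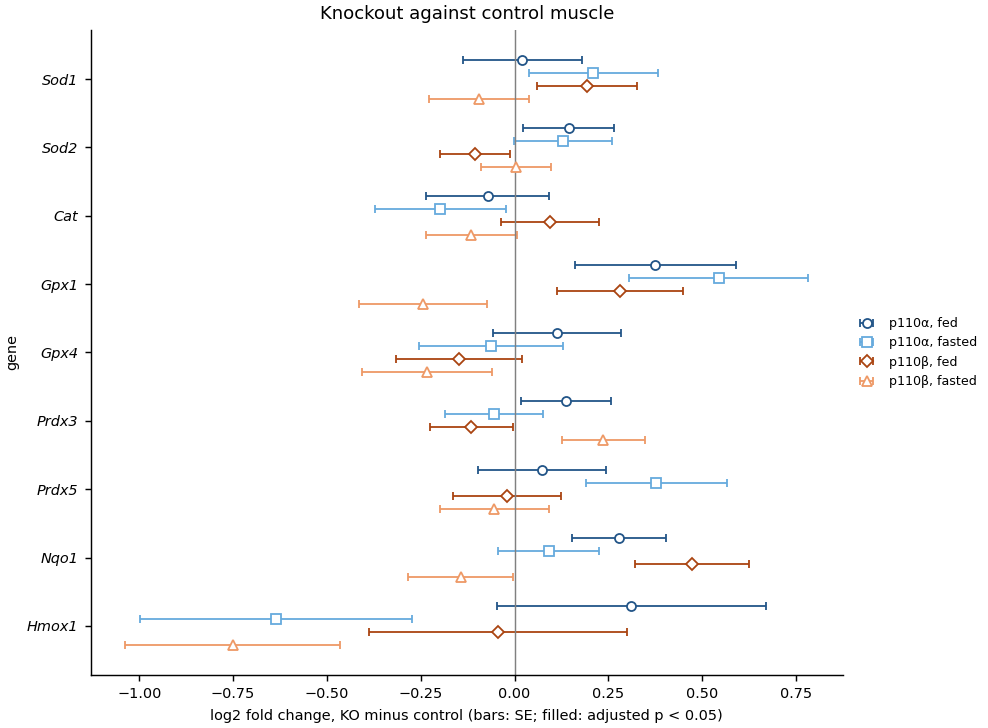
Difference of 9 antioxidant enzyme genes between knockout and control muscle (horizontal axis, log2 fold change) in fed and fasted mice of each line, with SE bars; open symbols did not pass an adjusted p of 0.05. All 36 symbols are open, and they lie between −0.75 for Hmox1 and 0.54 for Gpx1.

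The control mice of the 2 lines were then compared, since the lines served as backgrounds for the knockouts. In fed mice Sod1 was higher and Cat lower in the p110β line, 1 member each way, where 20.3% of 12760 genes were called, 9.33% higher and 10.9% lower. Sod1, the cytosolic superoxide dismutase, was at 106 to 132 CPM in the p110β and 67.2 to 97.9 CPM in the p110α line, a difference of 0.49 ± 0.16 (edgeR adjusted p = 0.0306). Cat was at 40.2 to 50.1 against 49.7 to 96.7 CPM, a difference of −0.63 ± 0.17 (edgeR adjusted p = 0.00793). The call of Sod1 was lost without replicate 1, 3, 16 or 18 (adjusted p 0.0621 to 0.186, lowest difference 0.36 without replicate 18) and that of Cat without replicate 16 (−0.57, adjusted p = 0.0515, edgeR). Gpx1, at 0.56 (edgeR adjusted p = 0.0652), was called without replicate 2 or 6, without a filter on low counts or with only the compared groups. These settings gave it an adjusted p from 0.00493 to 0.0454 (edgeR). Prdx5, at 0.42 (adjusted p = 0.0857), was called without replicate 4 (0.57, adjusted p = 0.0257, edgeR). With the GC and length offset Gpx1 was at 0.24 (adjusted p = 0.43) and Prdx5 at 0.17 (adjusted p = 0.444, edgeR).

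In fasted controls 4 members were higher in the p110β line and 0 lower, against 30.3% of all genes called, 14.7% higher and 15.5% lower. Nqo1 differed by 0.80 ± 0.14 (edgeR adjusted p = 9.67e-05), Prdx5 by 0.79 ± 0.18 (edgeR adjusted p = 0.00128), Gpx1 by 0.93 ± 0.22 (edgeR adjusted p = 0.00215) and Sod1 by 0.58 ± 0.16 (edgeR adjusted p = 0.00734). Gpx1 was at 41.1 to 51.3 CPM in the p110β and 21.7 to 28.8 CPM in the p110α line, and Prdx5 at 56.0 to 65.7 against 29.5 to 40.4 CPM, without overlap. Sod2 was −0.29 ± 0.11, just short of a call (edgeR adjusted p = 0.051), and was called by DESeq2 (adjusted p = 0.0464) and by edgeR without mitochondrially encoded genes (0.0497) or without replicate 8 or 10 (0.0278 and 0.0259). With the GC and length offset Gpx1 was at 0.45 (adjusted p = 0.109) and Prdx5 at 0.39 (adjusted p = 0.0549), no longer called. Sod2 with the offset was at 0.08, its direction turned, and was not called (adjusted p = 0.606, edgeR). Adipocyte markers differed in the same comparison, with 6 of 6 tested higher in the p110β line and a median difference of 3.47, and their part in it was not tested. Without replicates 23 and 24, which leaves 1 fasted β-line control whose spread is assumed to be like that of the other groups, the differences were 0.62 for Nqo1 (adjusted p = 0.0571), 0.77 for Prdx5 (adjusted p = 0.0695), 0.96 for Gpx1 (adjusted p = 0.0661) and 0.53 for Sod1 (adjusted p = 0.174), none of them called by edgeR.

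The genes that act with these enzymes were followed through 9 lists, whose counts stand against 30.1% of all genes called with fasting in α-line controls, 21.5% in M-p110αKO, 26.9% in β-line controls and 37.9% in M-p110βKO. Of the 8 regulators of NRF2, 6 rose in α-line controls, 8 in M-p110αKO, 7 in β-line controls and 7 in M-p110βKO, and 0 fell in any. Nfe2l2 itself, the gene of NRF2, went from 45.1 ± 1.3 to 81.3 ± 9.18 CPM (SD, n = 4) in α-line controls and from 31.0 ± 2.85 to 89.9 ± 16.6 CPM (SD, n = 3) in β-line controls. These changes were 0.84 (edgeR adjusted p = 0.000853) and 1.55 (edgeR adjusted p = 8.65e-07). Bach1, whose product represses Hmox1 and other NRF2 targets, rose by 1.17 in α-line and 1.89 in β-line controls. Keap1, whose product leads NRF2 to its breakdown, rose by 0.51 in β-line controls (edgeR adjusted p = 0.00297) and changed by 0.16 in α-line controls (edgeR adjusted p = 0.223). Maff and Mafk, partners of NRF2 and BACH1 on DNA, rose by 2.21 and 1.32 in α-line and by 2.69 and 1.54 in β-line controls, and Sqstm1, which binds KEAP1, by 0.84 and 1.27. In β-line controls without replicates 23 and 24, 6 of the 8 were called, and Keap1 was not (0.40, adjusted p = 0.103, edgeR). In the knockout comparisons 0 of 8 regulators were called in either line (edgeR).

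In the list of thioredoxin, glutaredoxin and repair genes, 3 of 14 rose and 3 fell in fasted α-line controls and 2 rose and 4 fell in β-line controls, against 30.1% and 26.9% of all genes called. Srxn1, sulfiredoxin, which restores overoxidised peroxiredoxins, was at 17.4 to 22.0 CPM in fed and 39.3 to 69.3 CPM in fasted α-line controls, and at 13.3 to 16.3 CPM in fed and 142, 155 and 178 CPM in fasted β-line controls. It rose by 1.58 ± 0.33 (edgeR adjusted p = 0.00142) and by 3.37 ± 0.14 (edgeR adjusted p = 2.21e-11), and the difference between lines of 1.78 ± 0.41 was called (edgeR adjusted p = 0.0205). Srxn1 was also the gene of these lists with an interaction called by edgeR. Fasted M-p110βKO had 79.3, 105, 96.5 and 87.2 CPM, all below the fasted controls. The difference was −0.78 ± 0.11 (edgeR adjusted p = 0.00468), and the interaction was −1.14 ± 0.18 (edgeR adjusted p = 0.0218). Limma-voom called 0 of all genes in this interaction. A fit of only the compared groups called 1 gene in fasted M-p110βKO against controls, instead of 109. With replicates 23 and 24 left out, these Srxn1 values were −0.95 (adjusted p = 0.00964) and −1.30 (adjusted p = 0.0149), both still called, while the difference of its response between lines was 1.96 and no longer called (adjusted p = 0.0645, edgeR). Txnrd1, the cytosolic thioredoxin reductase, rose by 0.68 in α-line and 1.25 in β-line controls, and Glrx5, a mitochondrial glutaredoxin, fell by 0.72 and 0.74, the latter not called without replicates 23 and 24 (−0.71, adjusted p = 0.074, edgeR).

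Of 18 tested genes of glutathione synthesis and transfer, 3 rose and 3 fell in fasted α-line controls and 5 rose and 0 fell in β-line controls, shares near the 30.1% and 26.9% of all genes called. Gsr, glutathione reductase, rose by 1.09 ± 0.13 and 0.88 ± 0.16 in these. Gclm, a subunit of the first enzyme of glutathione synthesis, rose by 1.24 ± 0.17 in α-line controls and by 1.20 ± 0.23 in M-p110βKO, while Gsta4, a transferase for lipid aldehydes, fell by 1.53 ± 0.23 in α-line controls. Of 12 genes that supply NADPH, 2 rose and 2 fell in α-line and 4 rose and 2 fell in β-line controls. Nnt, the mitochondrial transhydrogenase, was at 35.3, 46.5 and 71.1 CPM in fed and 103, 110 and 124 CPM in fasted β-line controls, a rise of 1.14 (edgeR adjusted p = 0.00129). In α-line controls, where the fed libraries held 57.2, 62.1, 62.3 and 124 CPM, it rose by 0.53 (edgeR adjusted p = 0.0461), and it changed by −0.43 in M-p110αKO (edgeR adjusted p = 0.152). Counts over all exons do not show which allele of Nnt a mouse carried or whether it gave a working enzyme, and neither was checked.

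Both metallothioneins, small metal binding proteins, rose in the p110β line and neither was called in the p110α line. Mt1 went from 8.33, 10.6 and 10.1 CPM to 84.0, 98.0 and 90.5 CPM in β-line controls, a change of 3.25 ± 0.18 (edgeR adjusted p = 1.66e-09), and its response there exceeded that of α-line controls by 2.79 ± 0.45 (edgeR adjusted p = 0.00107). That of Mt2 did so by 3.15 ± 0.63 (edgeR adjusted p = 0.0107). These differences, with replicates 23 and 24 left out, were 2.81 for Mt1 (adjusted p = 0.0147) and 3.38 for Mt2 (adjusted p = 0.0366, edgeR). Of the heme and iron genes, Tfrc, the transferrin receptor, fell by 2.28 and 1.74 in controls of the p110α and p110β lines (−2.91 in the latter without replicates 23 and 24), and Slc40a1, the iron exporter, rose by 1.40 and 0.84 (1.30 in the latter without these 2 libraries). In this list 1 of 6 tested rose and 1 fell in α-line and 2 of 7 rose and 1 fell in β-line controls, against 30.1% and 26.9% of all genes called.

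Against the same shares of all genes, 30.1% and 26.9%, 0 of the 8 other superoxide dismutases and peroxidases rose and 1 fell in α-line controls, Prdx2 by 0.42, and 1 rose in β-line controls, the plasma peroxidase Gpx3 by 1.52 ± 0.25. The rise of Gpx3 was not called without replicates 23 and 24 (0.60, adjusted p = 0.0899, edgeR). Among other selenoproteins, a list that shares Gpx3, Txnrd1, Txnrd3 and Msrb1 with those above, 3 of 16 tested rose and 2 fell in α-line and 4 of 17 rose and 2 fell in β-line controls. Of the genes for enzymes that make reactive oxygen, 3 of 8 were tested in each line. Nox4 rose by 1.67 and Cybb by 2.68 in α-line controls, from 1.23 to 3.85 and from 0.169 to 1.18 CPM, both low levels, and 0 were called in β-line controls (edgeR).

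Between knockouts and controls no gene of the 9 lists passed edgeR's test in fed mice of either line, where 0.611% and 0% of all genes did. In fasted mice 6.52% of all genes were called in the p110α and 0.89% in the p110β line. In fasted M-p110αKO, Gpx8 was higher by 0.84 ± 0.24, the mitochondrial thioredoxin Txn2 by 0.42 ± 0.12, the ferritin subunit Ftl1 by 0.50 ± 0.14 and Selenow by 0.61 ± 0.13, while Slc40a1 was lower by 0.84 ± 0.19 and Selenof by 0.44 ± 0.13, with adjusted p from 0.013 to 0.0486 (edgeR). With the GC and length offset 350 instead of 811 of all genes were called in this comparison. Whether the genes of the 9 lists kept their calls with the offset was not checked. The average over fed and fasted M-p110αKO, with 5.49% of all genes called, had Gpx8, Txn2 and Selenow higher and Slc40a1 lower, and also Me1, the cytosolic malic enzyme that yields NADPH, lower by 0.47 ± 0.12 (edgeR adjusted p = 0.0312). In fasted M-p110βKO, Srxn1 was lower as given above, Ftl1 was lower by 0.68 ± 0.13 (edgeR adjusted p = 0.0164) and the extracellular superoxide dismutase Sod3 by 1.99 ± 0.45 (edgeR adjusted p = 0.0433). When replicates 23 and 24 were left out, Ftl1 was at −0.50 (adjusted p = 0.536) and Sod3 at 0.16 (adjusted p = 0.981), so neither call held. Ftl1 thus had opposite signs in the knockouts of the 2 lines, and the difference of these fasted effects was 1.18 ± 0.20 (edgeR adjusted p = 0.00181), and 1.01 with adjusted p = 0.0711 without the 2 libraries.

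**Figure D5:**
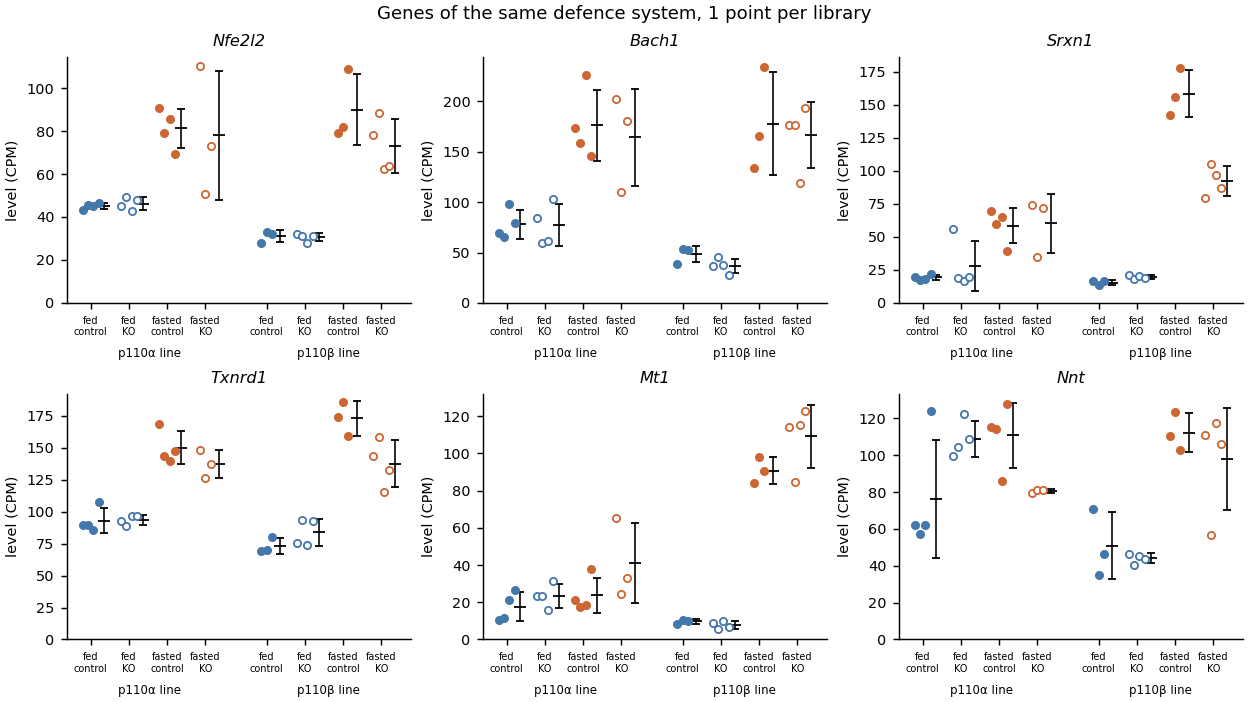
Level of 6 genes of the same defence system (vertical axes, CPM from 0) in the 8 groups (horizontal axes), 1 point per library; blue points are fed and orange points fasted mice, filled points controls and open points knockouts, with the mean and SD as a black bar. Srxn1 stood at 142 to 178 CPM in fasted β-line controls, above fasted M-p110βKO at 79.3 to 105 CPM, and Mt1 was above 84 CPM in all 7 fasted libraries of the p110β line.

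The members also differed in how they varied together over the 29 libraries, which share the 8 groups and their scaling, so that the coefficients describe these libraries only. Gpx1 and Prdx5 had r = 0.83 over all libraries and 0.48 within groups, and Sod1 and Sod2 had r = −0.76 over all and −0.44 within groups. For each member the most similar of 12759 other genes was found by Pearson correlation of log2 CPM. For Cat these were Acot2 (r = 0.97), Tacc2 (r = 0.95) and Retreg1 (r = 0.94). For Prdx5 they were Mrpl54, Atp5d and Ndufb11 (r from 0.94 to 0.95), and for Gpx1 Ndufa13, Fis1 and Rtl8a (r from 0.92 to 0.93). Sod2 was closest to Pdha1 (r = 0.94), Sod1 to Cct3 (r = 0.88), Nqo1 to Ifi30 (r = 0.87), Gpx4 to Lrrc24 (r = 0.83), Hmox1 to Tuba1c (r = 0.78) and Prdx3 to Chmp2b (r = 0.73). The median SD within groups on the log2 scale was 0.21 over all tested genes, and among the members it ran from 0.12 for Sod2 to 0.46 for Hmox1.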

How the data were processed

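RNA from skeletal muscle of 29 mice had been prepared with an NEBNext mRNA kit and, per the labels, the authors aligned reads to GRCm38 with STAR and counted them per gene with Subread featureCounts. The deposited values are raw counts per Ensembl gene. The labels also name HTG EdgeSeq, without saying for which step. For tool versions, strand setting and reads with several matches the entry is: not given in the sources used here. Gene symbols came from GENCODE (47310 of 48023 rows matched; the other 713 hold 0.0292% of counts).

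The libraries of a line were fitted together, with a coefficient for each group and apart from the other line, in edgeR 4.0.16 (R 4.3.3; TMM, filterByExpr with a minimum count of 10 and total of 15, quasi-likelihood F test, Benjamini-Hochberg adjustment over all tested genes, call below 0.05), and the 29 libraries together for comparisons between lines. SE is the log2 change divided by the root of F. Intervals cover 95%. Scripts were tested on simulated counts. Alternatives were DESeq2 1.42.0, limma-voom (limma 3.58.1), other scalings and filters, a GC and length offset (splines with 5 degrees of freedom, 99.7% of genes covered), and each library left out. Named genes were the members, Nnt, Nfe2l2, Keap1 and Bach1, and up to 4 called genes per list and comparison with the lowest adjusted p, of which the text gives a part; likeness gives the 3 highest correlations. The members and lists were chosen with earlier results of these data known. Replicates are separate mice, named by the number in their labels. Library pairs of a group differed by 3.92 to 30.99 chi-square per degree of freedom, so none was counted as a duplicate.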

Additional observations from a re-analysis of the deposited data

Results flagged for a closer look

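The fasting response of Nqo1 in control mice was called different between the lines, by 0.83 on the log2 scale, higher in the p110β line (edgeR adjusted p = 0.0289). The call was lost without replicate 1, 4, 10, 11, 16, 17, 23 or 24 (adjusted p 0.0533 to 0.0839, edgeR). Without both of replicates 23 and 24 the difference was 0.64. All 3 fasted β-line controls were above all 4 fasted α-line controls. Within groups of 4 libraries, 45 pairs of member and group were searched for a library far from the others and 0 were found. Other groups were too small for this search.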

How the results depend on the processing

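Of the 22 called changes of single members, 13 kept their call under every alternative that used all libraries or left out the 2 adipocyte-rich ones, and 13 kept it whichever library was left out. None reversed: 11 of 221 values fell short of the threshold under the former and 29 of 420 under the latter. Without a filter on low counts, 1 member was called in fasted M-p110αKO, 1 in the average effect of M-p110αKO, 4 in the fasting change of M-p110αKO, 2 in the line difference of the fasting response and 1 in the line difference of the fasted knockout effect. Upper-quartile scaling gave 5 in the fasting change of β-line controls, DESeq2 2 in the line difference of the fasting response, and the GC and length offset 2 in fasted controls between lines. Without replicates 23 and 24, an alternative chosen after seeing the data, 0 were called in fasted controls between lines (5 at an unadjusted p under 0.05) and 0 in the line difference of the response (2 at that p; edgeR, no other tool run without these libraries). With each library left out in turn, the members called numbered 3 to 5 in fasting α-line controls, 1 to 4 in fasting M-p110αKO, 0 to 3 in fed controls between lines and 0 to 2 in the line difference of the response.

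Over all genes, counts of calls moved by over 1.5 times as follows. Without the filter they went in M-p110αKO from 76 to 437 (fed), 811 to 1235 (fasted), 682 to 1145 (average) and 60 to 454 (interaction), in M-p110βKO from 0 to 224, 109 to 554, 41 to 437 and 13 to 377, from 199 to 714 for the line difference of the response and from 17 to 287 for that of the fed knockout effect. DESeq2 gave 201 (fed) and 237 (interaction) in M-p110αKO, 30, 173, 91 and 40 in M-p110βKO in the order above, 381 for the response and 72 for the fed effect. The offset gave 350 in fasted M-p110αKO, 4 in either interaction, 2409 instead of 3863 in fasted controls between lines and 204 instead of 623 for the line difference of the fasted knockout effect. A fit of only the compared groups gave 44 in fed M-p110αKO, 12 in fed and 1 in fasted M-p110βKO, and 28 and 390 for the line differences of the fed and fasted effects. A fit of all 29 libraries gave 154 in the α-line interaction and 4 in fed M-p110βKO. Limma-voom gave 53 (fasted), 26 (average) and 0 (interaction) in M-p110βKO, and upper-quartile scaling 6 in that interaction. Without replicates 23 and 24 there were 29 (fasted), 7 (average) and 7 (interaction) in M-p110βKO, 2095 instead of 3297 in fasting β-line controls, 825 in fasted controls between lines, 43 for the response and 34 for the fasted effect. The cause was not tested. No paired analysis was possible because every library has a number of its own and no number is shared between groups. Depth limits Hmox1 and genes with few reads.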
